A study of Mus musculus with 4 samples.

Results

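The Ifi200 genes, also called the PYHIN or HIN-200 family, form a cluster on mouse chromosome 1. Described here are 10 of its genes, Ifi202b, Ifi203, Ifi204, Ifi205, Ifi206, Ifi207, Ifi209, Ifi211, Ifi213 and Mndal, out of 32285 genes in the tables, matched by symbol. They were selected on measured values, namely the difference of Ifi202b between strains, so their levels by strain are a description and carry no test. All 10 passed the filter on low counts in the comparison of strains, Ifi202b through CC080F1 alone. Measurements were made by Visium, a spatial assay that reads the RNA of a tissue section at a grid of barcoded spots, on 11946 spots in 4 sections. Each section came from a tumor of MC38, a colon carcinoma line of C57BL/6 origin. Hosts were female F1 mice, 8 to 12 weeks old, that received 500000 cells subcutaneously. All hosts had a C57BL/6J parent and all received 1 dose of 200 µg of isotype control antibody (2A3) at a tumor size of 75 to 110 mm3, 48 hours before the tumors were taken. The other parent was CC075/UncJ for the 2 hosts called CC075F1 (a responder to anti-PD-1 in the study) and CC080/TauUncJ for the 2 called CC080F1 (a non-responder). Tumors under anti-PD-1 are not described here, so all values are from control-treated tumors. Both strains carry a C57BL/6J copy of every gene beside the copy from the Collaborative Cross parent, and the tumor cells carry only C57BL/6 copies.

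Ifi200 proteins share a HIN domain, which binds DNA, and most add a pyrin domain, through which pyrin proteins bind each other. Interferons induce many of the genes, and macrophages and related myeloid cells are a known site of expression. Aim2, a family gene outside the group described here, encodes the DNA sensor that builds an inflammasome. The p202 protein of Ifi202b has HIN domains but no pyrin domain and is known as an inhibitor of Aim2.

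The 10 genes lay in a span of 563326 bases (GRCm38, chromosome 1, 173468485 to 174031810). Ifi202b (ENSMUSG00000026535) occupied positions 173962568 to 173982744 on the minus strand, with 7 exons in its 1 annotated transcript, between Ifi203 (173920407 to 173942672) and Ifi205 (174011998 to 174031810). Outside the family, 43 annotated genes lay between the members or within 500 kb of them, of which 25 were in the tables. None of these 25 reached 1 CPM (1 UMI, or captured molecule, per 1000000 UMIs of the section) in a section. Ifi202b therefore had no neighbour outside its own family that was measured at that level. The gene models of Mndal overlapped those of Ifi211 and Ifi203 on the same strand.

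Reads of this assay come from the 3′ end of transcripts, where some members are near copies of each other. Of the stretches of 90 bases in the last 500 bases of its transcripts, Ifi202b shared 0% with any other gene, and Ifi203, Ifi204 and Ifi207 likewise 0%. Ifi205 and Ifi211 each had 59.4% of these stretches in common with other genes, chiefly with one another, and some with Mndal. Ifi209 had 58.6% in common with Ifi214. The levels of Ifi205, Ifi211 and Ifi209 are uncertain to that extent. Reads of all sections were aligned to a single reference genome. How well reads from the Collaborative Cross copies aligned to it was not tested, a limit on every level by strain.

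The promoters of 4 members are shown because they differ in 2 sets of letters, ISRE and GAS, through which interferon-activated factors are known to bind. Each window runs from 250 bases before to 50 bases after the start that RefSeq gives, on the minus strand of GRCm38.p6, and is the C57BL/6J sequence. Capitals mark matches to the ISRE letters (GAAANNGAAA, or TTTCNNTTTC on the other strand) and to the GAS letters (TTCNNNGAA, which reads the same on both strands). The windows were chr1:173982795-173983094 for Ifi202b, chr1:174031706-174032005 for Ifi205, chr1:173942443-173942742 for Ifi203 and chr1:173912997-173913296 for Ifi211.
Ifi202b: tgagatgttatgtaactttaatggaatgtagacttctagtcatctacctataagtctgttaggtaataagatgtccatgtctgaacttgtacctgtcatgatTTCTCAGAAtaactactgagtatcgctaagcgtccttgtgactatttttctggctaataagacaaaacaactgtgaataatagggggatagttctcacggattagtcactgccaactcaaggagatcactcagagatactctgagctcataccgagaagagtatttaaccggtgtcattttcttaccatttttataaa
Ifi205: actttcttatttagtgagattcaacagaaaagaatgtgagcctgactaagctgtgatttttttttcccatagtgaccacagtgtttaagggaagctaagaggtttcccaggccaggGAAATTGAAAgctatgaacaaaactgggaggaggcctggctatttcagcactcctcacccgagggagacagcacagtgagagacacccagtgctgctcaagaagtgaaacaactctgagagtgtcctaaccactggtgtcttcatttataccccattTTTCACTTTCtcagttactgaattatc
Ifi203: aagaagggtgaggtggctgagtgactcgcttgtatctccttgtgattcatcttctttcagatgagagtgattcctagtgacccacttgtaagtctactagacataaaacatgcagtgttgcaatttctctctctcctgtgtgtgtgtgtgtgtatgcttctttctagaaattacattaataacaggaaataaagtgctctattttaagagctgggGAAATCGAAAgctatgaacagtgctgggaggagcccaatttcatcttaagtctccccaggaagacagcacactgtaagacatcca
Ifi211: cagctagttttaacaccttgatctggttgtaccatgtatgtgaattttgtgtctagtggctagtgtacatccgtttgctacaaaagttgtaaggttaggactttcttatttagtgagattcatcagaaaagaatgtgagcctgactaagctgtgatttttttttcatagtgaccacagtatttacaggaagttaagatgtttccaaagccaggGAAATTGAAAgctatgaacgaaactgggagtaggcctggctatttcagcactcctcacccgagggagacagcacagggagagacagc
ISRE letters were present for 7 of the 9 members that had a window, and in 8 of their 11 windows, against 3.44% of 32851 promoters of the same length. The letters GAAATCGAAA stood in the windows of 5 members (Ifi203, Ifi206, Ifi207, Ifi213 and Mndal) and in 16 promoters of the whole genome (0.0487%). Ifi208 and Ifi214, family genes outside the group, hold them too. Some windows of the family are near copies of each other, such as those of Ifi206, Ifi208 and Ifi213. The members are thus not independent when set against all promoters. Ifi205 and Ifi211 held GAAATTGAAA, which was found in 38 promoters (0.116%). These matches began 35 bases before the start in Ifi203, 37 in Ifi211 and 134 in Ifi205, which had a further match within its first transcribed bases. Ifi203 also had a window for another start (chr1:173942623-173942922, not shown), which held neither ISRE nor GAS letters. The Ifi202b window held no ISRE letters and 1 GAS match, TTCTCAGAA, which began 148 bases before the start, against GAS letters in 8.3% of all promoters. The Ifi209 window held neither. The sequences of the CC075 and CC080 copies were not analysed here.

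Section totals ran from 82594649 to 146460975 UMIs, with a median of 31158 to 41740 UMIs per spot, and 1 spot with 0 UMIs was left out. All 12 macrophage markers reached 1 CPM in every section. Their summed level was 4995 and 4488 CPM in CC075F1 and 3075 and 3594 CPM in CC080F1. The summed interferon list (19 of its 20 genes were measured) stood at 2010 and 1489 CPM in CC075F1 and at 1135 and 1638 CPM in CC080F1. Of 5 genes listed for MC38 cells, Shisal2b and keratin genes, 1 or 2 reached 1 CPM in a section. The summed list, at 123 to 268 CPM, thus rests mostly on 1 or 2 genes and is not a secure guide to the tumor cells. A spot covers several cells, and fewer cells of a type and less RNA per cell cannot be told apart. The 1666 spot barcodes found in all 4 sections are positions of the slide design, not shared cells.

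Ifi202b was present in one strain and undetected in the other. It had 0 UMIs in CC075F1 replicate 1 and 0 UMIs in replicate 2, against 3365 and 4933 UMIs in CC080F1 replicates 1 and 2. On the CPM scale the CC080F1 levels were 36.0 and 43.8 (mean 39.9 ± 5.53, SD, n = 2). The 2 groups were far apart. With 3 UMIs per section as the limit that a count of 0 allows, CC075F1 lay under 0.0363 and 0.0205 CPM, and the level was at least 990-fold higher in CC080F1. Of all 32285 genes, Ifi202b alone had 0 UMIs in both CC075F1 sections and at least 1 CPM in both CC080F1 sections. The reverse pattern was met by 1 gene, Gm10503, with 1.78 and 2.46 CPM in CC075F1.

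The neighbours of Ifi202b were expressed in both strains. Ifi203, the nearest member on one side, had 12.5 and 6.93 CPM in CC075F1 and 12.5 and 12.5 CPM in CC080F1, so the strains overlapped. Ifi205, the nearest member on the other side, went the opposite way to Ifi202b, with 6.01 and 5.26 CPM in CC075F1 and 1.91 and 2.46 CPM in CC080F1. The Ifi205 sections did not overlap, and the mean in CC075F1 was 2.58 times that in CC080F1. Whether reads from the Collaborative Cross copies aligned equally well in both strains was not tested. The protein of Ifi205, p205, has been tied to cell differentiation. UMIs of Ifi205 were found in 15.8% and 19.0% of CC075F1 spots and in 5.67% and 7.88% of CC080F1 spots. Ifi211, whose 3′ end resembles that of Ifi205, had 5.28 and 4.19 CPM in CC075F1 and 6.67 and 8.35 CPM in CC080F1, again without overlap but higher in CC080F1.

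**Figure D1:**
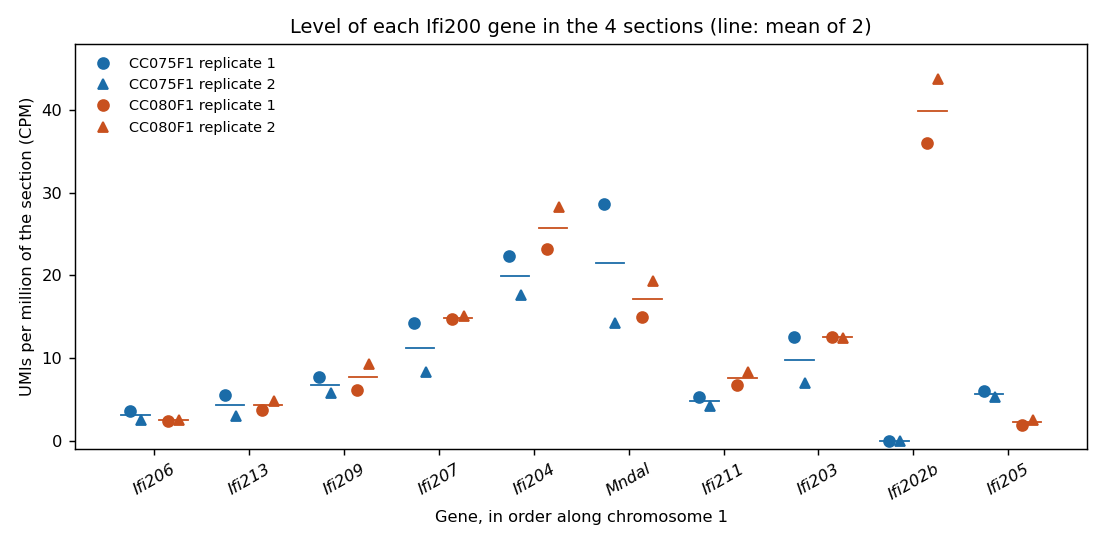
Level of each Ifi200 gene in CPM (UMIs per 1000000 of the section, linear axis) in the 4 sections, with genes in their order along chromosome 1; points are sections and short lines the mean of 2. Ifi202b sits at 0 in both CC075F1 sections and at 36.0 and 43.8 CPM in CC080F1, while its neighbours Ifi203 and Ifi205 are present in both strains.

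Among the other members, Ifi204, whose protein p204 is regarded as a counterpart of the human DNA sensor IFI16, had 22.3 and 17.6 CPM in CC075F1 and 23.2 and 28.2 CPM in CC080F1. Mndal, the myeloid nuclear differentiation antigen like gene, had 28.6 and 14.3 CPM in CC075F1 and 14.9 and 19.3 CPM in CC080F1. Ifi207 had 14.2 and 8.25 CPM in CC075F1 and 14.7 and 15.1 CPM in CC080F1. Ifi204 and Ifi207 did not overlap between strains by a small margin, and Mndal spanned the range of the other strain. Ifi206 (2.40 to 3.63 CPM over the 4 sections), Ifi209 (5.74 to 9.29 CPM) and Ifi213 (2.95 to 5.55 CPM) all overlapped. In total 5 of the 10 members did not overlap between strains, beside 36.9% of all 15572 genes tested, which with 2 sections a strain is read as nothing about the members. The edgeR fit of the strains called 0.0899% of all genes (14 genes). The 1 member among them was Ifi202b, an outcome that the selection fixed and from which nothing is read. The 14 became 138 genes without CC080F1 replicate 1 and 207 without CC080F1 replicate 2, fits in which the lone CC080F1 section is assumed to vary like the CC075F1 sections. Since the macrophage list was lower in CC080F1, each level was also set against it. By construction this lowers the difference of every member but Ifi202b, which has none, by the same amount. The difference in log2 CPM (CC075F1 minus CC080F1) was then 0.86 in place of 1.37 for Ifi205, -0.88 in place of -0.37 for Ifi204 and -1.18 in place of -0.67 for Ifi211. For 2 genes that overlapped between strains this common shift changed the sign, from 0.30 to -0.21 for Ifi206 and from 0.25 to -0.26 for Mndal. The part of the macrophage level in these differences was not tested, nor was that of read alignment to the reference genome.

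Of the genes outside the group, Aim2 had 25.1 and 16.9 CPM in CC075F1 and 24.7 and 27.6 CPM in CC080F1, with overlap. Ifi208 (1.49 to 3.52 CPM over the 4 sections) overlapped as well. Ifi214 had 0.254 and 0.198 CPM in CC075F1 and 0.460 and 0.621 CPM in CC080F1. Of the DNA sensing list (sensors, adaptors and inflammasome genes, 17 measured), 16 were tested between strains. Of these, 0 were called by edgeR or by DESeq2, and 2 had an unadjusted edgeR p under 0.05. On simulated data this edgeR fit called 32% of 2-fold and 80% of 4-fold changes, so real differences can go uncalled. The median difference of the 16 was 0.158 (log2, CC075F1 minus CC080F1), against -0.0195 over all genes. The widest was that of Il1b, at 1.13 ± 0.46 (SE). Tmem173, which encodes the adaptor STING, had a difference of 0.42 ± 0.18, and Cgas, the cyclic GMP-AMP synthase gene, one of -0.23 ± 0.23.

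The share of spots with at least 1 UMI addressed where Ifi202b was found. It was held by 1771 of 2787 spots (63.5%, exact 95% interval 61.7% to 65.3%) in CC080F1 replicate 1 and by 2091 of 3174 spots (65.9%, 64.2% to 67.5%) in replicate 2. In CC075F1 the same count gave the background. It was 0 of 2709 and 0 of 3276 spots, which allows shares of up to 0.111% and 0.0916% with 3 spots as the limit, and of up to 0.136% and 0.113% by the exact interval. Intervals and floors cover counting error only. In CC080F1 replicate 1, 896 spots had 1 UMI, 495 had 2, 205 had 3 and 175 had more, up to 10. In replicate 2 these numbers were 853, 535, 291 and 412, up to 14. Most holding spots therefore rested on 1 or 2 molecules. UMIs placed evenly by depth would have reached 67.8% and 73.1% of the spots, both above the shares seen. The share of holding spots depended on depth. From the shallowest to the deepest of 5 equal classes of spots it went from 52.0% to 74.1% in replicate 1 and from 35.0% to 80.3% in replicate 2, while the CPM did not follow 1 pattern. It was 47.9, 36.8, 36.1, 32.2 and 33.9 in replicate 1 and 40.4, 44.6, 47.9, 49.7 and 37.4 in replicate 2. With each spot thinned to 10000 UMIs the shares were 29.4% and 34.8%.

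**Figure D2:**
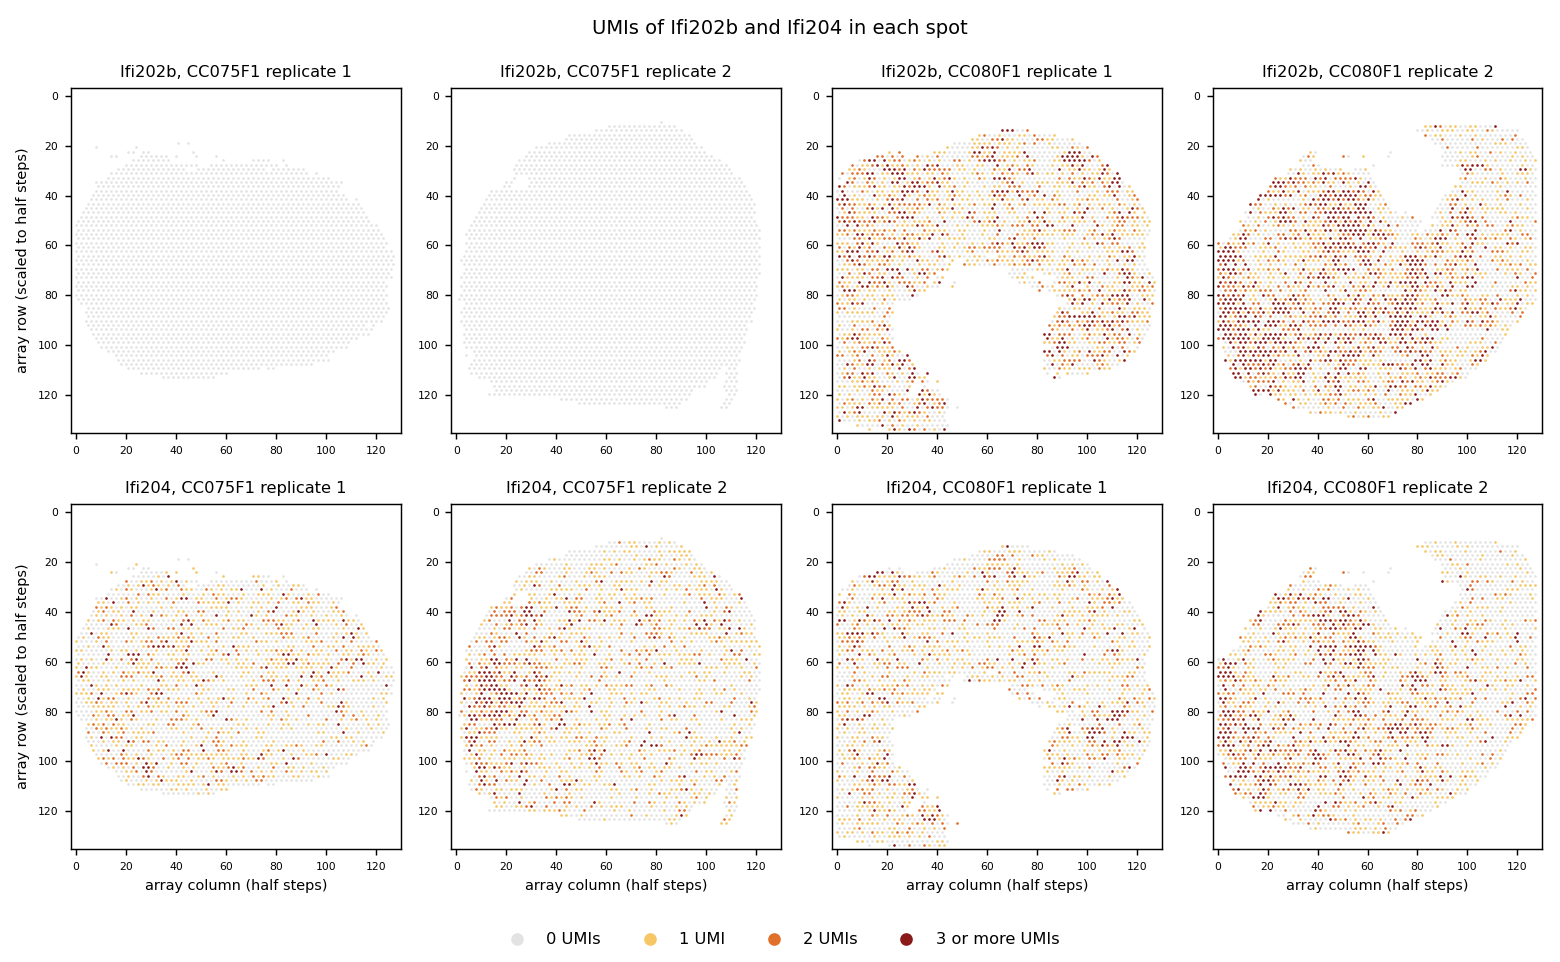
Map of every spot in the 4 sections on the slide grid (axes in grid positions, rows scaled to the true distance), coloured by 0, 1, 2 or at least 3 UMIs of Ifi202b (upper row) and Ifi204 (lower row). No CC075F1 spot holds Ifi202b, 63.5% and 65.9% of CC080F1 spots do, and Ifi204 is spread over all 4 sections.

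At full depth, holding spots had holding neighbours more often than free spots did. Holding itself rose with depth, and the part of depth in these shares was not tested. In CC080F1 replicate 1 the neighbours of a holding spot were holding in 66.6% of cases and those of a free spot in 58.2%, and in replicate 2 in 72.2% and 53.7%. Moran's I (0 for no spatial pattern, 1 for full clustering, on log2(CPM + 1) over the 6 nearest spots) was 0.109 and 0.178 for Ifi202b. Ifi204 had 0.0885 and 0.134. The other 8 members lay between 0.0279 and 0.0841 in the CC080F1 sections. At 10000 UMIs a spot the values were 0.0473 and 0.0852 for Ifi202b and 0.0560 and 0.0560 for Ifi204, so the order of the 2 genes turned in replicate 1. No interval was computed for Moran's I, so how far these values differ beyond counting error was not tested.

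The 10 genes were then compared between spots rich and poor in macrophage markers, a contrast that the choice of members did not use. The upper and the lower tertile of each section by the share of UMIs in the macrophage list were summed and tested in edgeR with the section as a block. Of the 10 members 9 were called higher in the macrophage-rich tertile, beside 4.13% of all genes called higher, and their median change was 0.80 (log2), against -0.03 over all genes. Ifi203, another HIN protein gene, rose most, by 1.06 ± 0.17 (log2, SE, edgeR adjusted p = 0.0274). Its levels in the rich and the poor tertile were 15.5 and 9.49 CPM in CC075F1 replicate 1, 13.2 and 3.08 in replicate 2, 16.4 and 8.56 in CC080F1 replicate 1 and 17.7 and 8.17 in replicate 2. All 4 sections thus moved the same way, CC075F1 replicate 2 the furthest. Ifi213 rose by 1.00 ± 0.14 (adjusted p = 0.0218, edgeR) and Ifi204 by 0.80 ± 0.08 (edgeR adjusted p = 0.0181). Ifi206 had a change of 0.76 ± 0.17 (edgeR adjusted p = 0.0553). For Ifi202b, whose value rests on the CC080F1 sections, the change was 0.78 ± 0.07 (edgeR adjusted p = 0.0199), with 47.2 against 26.2 CPM in replicate 1 and 57.2 against 29.8 CPM in replicate 2. Without CC080F1 replicate 1, and likewise without replicate 2, 0 of the 9 members tested and 0 genes in all were called by edgeR, although all 9 had an unadjusted p under 0.05. With all 4 sections edgeR called 791 genes, and DESeq2 called all 10 members. The interferon list moved with the macrophage list (12 of its 19 genes were called higher), as did 7 of 15 DNA sensing genes and 2 of 9 T and NK cell genes. With the tertiles taken within tertiles of the interferon list, 9 members were called, the median change was 0.40 and that of Ifi202b was 0.35. The part of the other cell types in the change was not tested.

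The contrast of interferon-high with interferon-low spots gave larger values. All 10 members were called higher in the upper tertile by the interferon list, which holds none of them, beside 8.67% of all genes called higher. Their median change was 1.52 (log2), against -0.02 over all genes and 1.49 over the 19 genes of the list itself, whose change the ranking fixed. Ifi205 rose most, by 1.82 ± 0.12 (log2, SE, edgeR adjusted p = 0.000216). In the high and the low tertile it had 10.3 and 3.27 CPM in CC075F1 replicate 1, 10.1 and 2.29 in replicate 2, 3.33 and 0.976 in CC080F1 replicate 1 and 4.46 and 0.917 in replicate 2. Every section moved the same way, from lower levels in CC080F1. Ifi213 rose by 1.77 ± 0.13 (edgeR adjusted p = 0.000315) and Ifi204 by 1.46 ± 0.06 (edgeR adjusted p = 4.84e-05). Ifi207 and Mndal rose least, by 0.96 ± 0.07 and 1.09 ± 0.06 (edgeR adjusted p = 0.000315 and 0.000127). Ifi202b rose by 1.32 ± 0.08 (edgeR adjusted p = 0.000702), from 23.3 to 56.4 CPM in replicate 1 and from 24.3 to 70.5 CPM in replicate 2. Members with ISRE letters in their windows ran from 0.96 to 1.82, a span that holds both Ifi202b and Ifi209 (1.51), whose windows had none. All hosts carry the copy whose windows were read, and Ifi202b had 0 UMIs in CC075F1. Which copy gave its UMIs in CC080F1 was not tested, and the promoter of the Collaborative Cross copy was not analysed. The change of Ifi202b therefore cannot be set against its window. Every member tested was called under each alternative setting and without each section. Without CC080F1 replicate 1 or CC080F1 replicate 2 only 9 members were tested. Ifi202b, at 0 in CC075F1, dropped out there, so its call was not checked without a CC080F1 section. The number of all genes called went from 2077 to 845 without CC075F1 replicate 1 and to 300 without CC080F1 replicate 2. Within tertiles of the macrophage list the median change was 1.34 and all 10 were called. In the same contrast Ifi208 rose by 1.94 ± 0.18 and Ifi214 by 1.83 ± 0.29 (edgeR adjusted p = 0.000876 and 0.00703), whereas Aim2 had a change of 0.03 ± 0.05 (edgeR adjusted p = 0.73). Of 15 DNA sensing genes 8 were called higher, among them Irf7, an interferon regulatory factor (1.38 ± 0.05), Zbp1, a nucleic acid sensor (1.08 ± 0.08) and Samhd1, a nucleotide hydrolase (0.71 ± 0.09). Markers of macrophages (7 of 12), T and NK cells (7 of 9), dendritic cells (5 of 7) and endothelial cells (5 of 5) were called higher as well, and their part in the members' change was not tested.

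**Figure D3:**
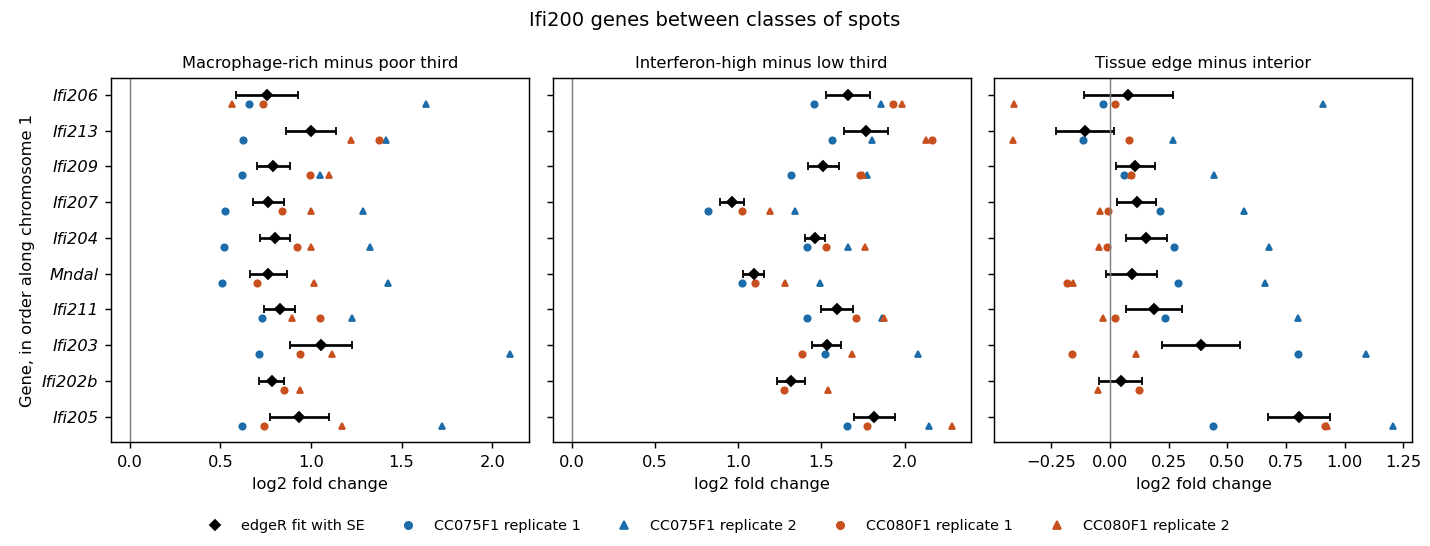
Change of each Ifi200 gene between classes of spots (log2 fold change), with black diamonds for the edgeR fit and its SE and coloured points for the plain ratio of CPM in each section, which is not scaled by TMM and so can lie beside the fit (Ifi202b has points for CC080F1 only). All points of the interferon contrast lie above 0, Ifi207 and Mndal have its smallest changes, and the edge contrast is near 0 for most genes.

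Between the tissue edge, taken as spots up to 3 grid steps from the nearest position off tissue, and the interior, 1 of the 10 members was called. Under this definition spots beside a gap inside a section count as edge, and spots at the border of the grid need not. Ifi205 was higher at the edge by 0.81 ± 0.13 (log2, SE, edgeR adjusted p = 0.0442), beside 0.788% of all genes called higher. It had 7.76 CPM at the edge and 5.73 CPM in the interior of CC075F1 replicate 1, 10.4 and 4.50 in replicate 2, 2.87 and 1.52 in CC080F1 replicate 1 and 4.08 and 2.15 in replicate 2. It was higher at the edge in every section, but the call was lost with an edge of 5 steps (edgeR adjusted p = 0.0628) and without CC075F1 replicate 1, CC075F1 replicate 2 or CC080F1 replicate 2 (edgeR adjusted p from 0.0914 to 0.228). Without CC080F1 replicate 1, Ifi203 was called too (edgeR adjusted p = 0.042), and the 125 genes called in all became 854. Ifi202b had 38.2 and 35.0 CPM at the edge and in the interior of CC080F1 replicate 1 and 42.5 and 44.0 CPM in replicate 2, so the sections went opposite ways by small amounts. Neutrophil markers (3 of 5) and fibroblast markers (3 of 7) were called higher at the edge, and their part was not tested.

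Whether the strains differed in these contrasts was tested as an interaction in edgeR, leaving Ifi202b aside since it was at 0 in CC075F1. None of the other 9 members was called, beside 0.00723% of all genes in the macrophage contrast, 0.00723% in the interferon contrast and 0.0837% at the edge. An unadjusted p under 0.05 was reached by 0 members for the macrophage contrast, by 1 (Ifi213) for the interferon contrast and by 3 (Ifi203, Ifi204 and Mndal) for the edge. Ifi213 rose by 0.54 less (log2) in CC075F1 than in CC080F1 in the interferon contrast.

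Within CC080F1, spots that held Ifi202b were compared with spots that did not, at an equal depth of 15000 UMIs a spot. This left 1034 holding spots of 2662 in replicate 1 and 1259 of 2818 in replicate 2, with 125 and 356 shallower spots left out. All 9 other members were called higher in holding spots, beside 2.46% of all genes called higher, with a median change of 0.70 (log2) against -0.002 over all genes. Ifi204 had 32.1 CPM in holding and 19.2 CPM in free spots of replicate 1 and 33.7 and 21.6 CPM in replicate 2, a rise of 0.65 ± 0.07 (log2, SE, edgeR adjusted p = 1.08e-20). Ifi205 rose by 0.99 ± 0.24 (edgeR adjusted p = 0.0015), from 1.11 to 3.29 CPM and from 1.84 to 2.75 CPM. Mndal rose least, by 0.45 ± 0.08 (edgeR adjusted p = 2.07e-06), from 14.8 to 16.4 CPM in replicate 1 and from 15.2 to 25.5 CPM in replicate 2, so its change was small in the first section. Spots are not replicates, and with 2 sections the spread in this fit is pooled over all genes. The SEs and p-values therefore do not fully cover how far the sections differ for a single gene such as Mndal. DESeq2 gave an adjusted p for 3 of the 9 members and called 1, Ifi204, while 7 of the 9 had an unadjusted p under 0.05. Balanced over tertiles of the macrophage list, 7 of the 9 were called, and balanced over tertiles of the interferon list 3 (Ifi204, Ifi209 and Ifi211), with a median change of 0.45.

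Member levels were only weakly related from spot to spot. At 15000 UMIs a spot, Spearman's rho between pairs of the 10 genes ran from -0.00418 to 0.154 over the 162 pairs and sections (2402 to 3108 spots a section), with a median of 0.0574. In holding spots of CC080F1 replicate 1, 35.1% also held Ifi204, against 23.7% of free spots, and in replicate 2, 36.4% against 25.6%.

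Other genes also differed between holding and free spots. Of 13425 genes tested 603 were called, 330 higher and 273 lower. The largest rises among called genes of at least 10 CPM were those of Oas3, an oligoadenylate synthetase (0.82 ± 0.10, log2, SE), Usp18, the protease that removes ISG15 (0.82 ± 0.08), the collagen gene Col1a2 (0.80 ± 0.04), the GTPase gene Iigp1 (0.73 ± 0.06) and the chemokine gene Ccl8 (0.70 ± 0.05). Serpina3g, a protease inhibitor gene, the complement gene C3, the chemokine genes Cxcl9 and Cxcl10 and the collagen gene Col1a1 followed, at 0.68 to 0.70. The sections differed for the collagen genes, with 53.5 against 42.1 CPM in replicate 1 and 157.0 against 72.8 CPM in replicate 2 for Col1a2, and 63.3 against 55.3 and 153.2 against 73.4 CPM for Col1a1. Cxcl10 had 263.5 against 155.7 CPM in replicate 1 and 397.2 against 247.7 CPM in replicate 2. Of the 19 interferon genes 18 were called higher, as were 5 of 12 macrophage, 4 of 7 fibroblast, 4 of 5 endothelial, 4 of 4 erythrocyte and 3 of 15 DNA sensing genes, whose part in the members' change was not tested beyond the balanced fits. The 3 were Irf7 (0.61 ± 0.05), Zbp1 (0.31 ± 0.05) and Samhd1 (0.21 ± 0.04). The erythrocyte calls were not matched when spots were ranked by the erythrocyte list. Ifi202b then had 37.2 CPM in the lower and 37.8 CPM in the upper tertile of replicate 1, and 43.1 and 45.5 CPM in replicate 2. The largest falls were those of Mmp12, the macrophage elastase gene (-0.79 ± 0.11), the noncoding gene Gm26917 (-0.62 ± 0.06), the glucose transporter gene Slc2a1 (-0.61 ± 0.04), the heat shock gene Hspa1b (-0.59 ± 0.10) and Bnip3, a mitochondrial death and mitophagy gene (-0.58 ± 0.04). Egln3, a prolyl hydroxylase gene, Ero1l, an oxidoreductase gene of the endoplasmic reticulum, Ankrd37, Mgarp and Ier3 followed, at -0.40 to -0.51. All 20 had an edgeR adjusted p of at most 6.68e-05, which rests on the same pooled spread and does not fully cover differences between the sections. DESeq2, which gave an adjusted p for 7699 of the genes, called 73.

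**Figure D4:**
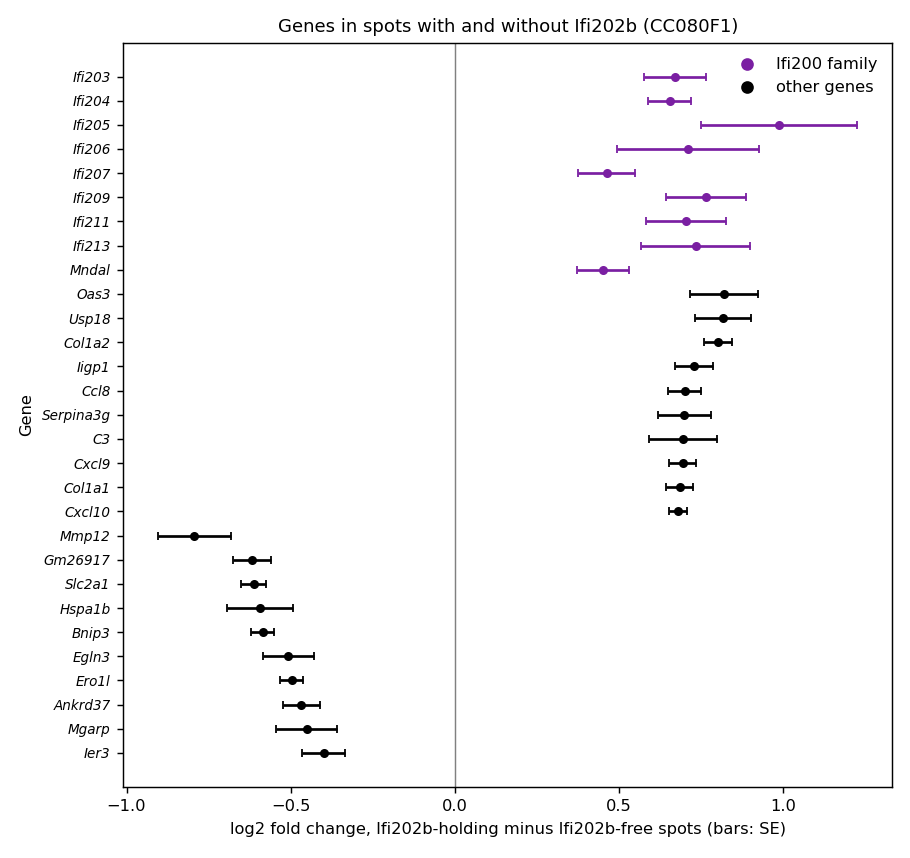
Log2 fold change between Ifi202b-holding and Ifi202b-free spots of the CC080F1 sections at 15000 UMIs a spot (edgeR, bars are SE), for the 9 other Ifi200 genes and the 20 other genes named. The 9 family genes lie above 0, from 0.45 for Mndal to 0.99 for Ifi205.

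Ranked by likeness across spots, the gene closest to Ifi202b was the interferon-induced chemokine gene Cxcl10. Over the 8430 genes of at least 10 CPM, the mean of Spearman's rho over the 2 CC080F1 sections was highest for it (0.213). Ly6a (0.20), Tmsb4x (0.169), Ifitm3 (0.168), Ly6e, Igtp, Isg15, Irf7 and Ccl12 were also among the 10 highest. Of the members, Ifi204 ranked 19 (0.146), Ifi203 35 (0.124), Ifi207 84 (0.0905) and Mndal 87 (0.0888). These values are a description over 2662 and 2818 spots that share a library and a thinned depth, and all are low.

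Across marker lists, the level of Ifi202b moved most with the interferon list. From the lower over the middle to the upper tertile it was 23.3, 30.6 and 56.4 CPM in replicate 1 and 24.3, 40.3 and 70.5 CPM in replicate 2. It was also higher in the upper than in the lower tertile of the macrophage list (47.2 against 26.2 and 57.2 against 29.8 CPM). The same held for the DNA sensing list, which holds the interferon-induced Irf7 and Zbp1 (48.2 against 27.7 and 67.5 against 27.0 CPM). The endothelial list had 41.2 against 30.6 and 54.7 against 34.0 CPM. Smaller steps were seen along the T and NK cell list (40.2 against 34.1 and 52.6 against 37.5 CPM) and the dendritic cell list (39.4 against 34.9 and 50.6 against 40.1 CPM). These last lists were sparse, summing to 19.8 and 24.4 CPM and to 14.7 and 17.4 CPM. Along the fibroblast list it went from 30.6 to 42.9 CPM in replicate 1 but from 42.5 to 43.8 CPM in replicate 2. Along the B cell, neutrophil, MC38 cell and erythrocyte lists the upper tertile stood at 0.923 to 1.06 times the lower. The B cell list summed to only 3.31 and 2.89 CPM in the CC080F1 sections, and the neutrophil list to 6.12 and 7.23 CPM. Spots without their UMIs were ranked in spot order, so these tertiles cannot show whether Ifi202b follows those cells. The MC38 list had 1 gene that reached 1 CPM in these sections. No test was run on these lists apart from the macrophage and interferon contrasts.

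**Figure D5:**
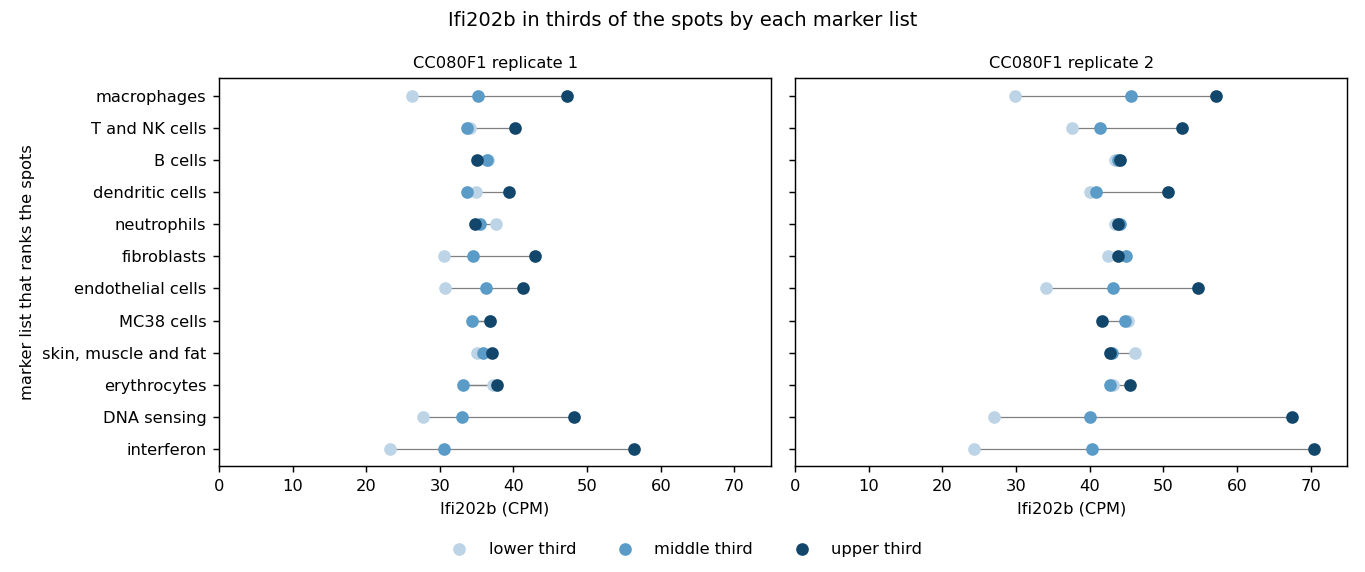
Level of Ifi202b in CPM (linear axis) in the lower, middle and upper tertile of spots of the 2 CC080F1 sections, ranked by the summed level of each marker list. The interferon list has the widest step, from 23.3 to 56.4 CPM and from 24.3 to 70.5 CPM. The tertiles of the B cell list lie close together, but that list was too sparse to rank most spots.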

How the data were processed

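Visium libraries of 4 sections were sequenced and processed by the authors with Space Ranger (1.3.1 per the file headers) on GRCm38 (mm10). The deposited values are raw UMI counts per gene and spot, with no normalization, beside the grid position of each spot. Levels are CPM, the UMIs of a gene per 1000000 of the section or class of spots. Groups came from the host genotype in the labels. Members, lists and tests were chosen with earlier results of these data known. Spots were summed per section or class, and the sums entered the quasi-likelihood test of edgeR (4.0.16, under R 4.3.3), scaled by TMM after filterByExpr, with Benjamini-Hochberg adjustment over all genes tested and a threshold of 0.05, and the pipeline was tested on simulated data. Strain was the only term between strains. Classes within sections had the section as a block. Tertiles were set within each section by the share of UMIs in a list, and thinning drew UMIs at random with a fixed seed. DESeq2 1.42.0 was an alternative. Exact binomial intervals were at 95%. Shared 3′ stretches came from GENCODE transcripts of an earlier release than the authors used, and promoters from RefSeq, matched by symbol for 9 of 10 members (Ifi204 is named only). The named genes were all members, the other family genes, up to 10 genes each way with the largest change among called genes of at least 10 CPM between Ifi202b-holding and free spots, and the 10 most like Ifi202b across spots, of which 1 is not reported here. The labels call the 2 sections of a strain biological replicates, so p-values rest on few sections.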

Additional observations from a re-analysis of the deposited data

Results flagged for a closer look

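Ifi204, Ifi207 and Mndal were higher at the tissue edge than in the interior in both CC075F1 sections and lower in both CC080F1 sections. For Ifi204 and Ifi207 the CC080F1 levels were nearly equal. Ifi204 had 23.1 CPM at the edge and 23.3 in the interior of CC080F1 replicate 1, and 27.4 and 28.4 in replicate 2. Ifi207 had 14.6 and 14.7 CPM in CC080F1 replicate 1 and 14.7 and 15.1 in replicate 2. Mndal had 34.0 and 27.8 CPM at the edge and in the interior of CC075F1 replicate 1, 21.0 and 13.3 in replicate 2, 13.6 and 15.4 in CC080F1 replicate 1 and 17.6 and 19.6 in replicate 2. The difference between the strains in the change at the edge (log2, CC075F1 minus CC080F1, edgeR interaction) was 0.50 ± 0.13 for Mndal (SE, adjusted p = 0.257), 0.37 ± 0.12 for Ifi204 (adjusted p = 0.436) and 0.27 ± 0.14 for Ifi207 (adjusted p = 0.629). None passed the threshold of edgeR after adjustment over all genes.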

How the results depend on the processing

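The number of genes called between strains was 14, and it was 194 with DESeq2, 40 with library size alone, 5 in the macrophage-rich tertile, 480 with no filter, and 11 to 207 without one section. Library size alone moved the median of all genes from -0.02 to -0.31 (log2) between strains, and to 0.12 and 0.11 in the macrophage and interferon contrasts. With a replicate block 287 genes and 2 members were called. The replicate numbers are only names here (the labels state no shared batch, and deviations of same-numbered sections correlated at 0.166 over genes, from 2 pairs), so this paired fit is given only as a count. Of the members, 2 were called with DESeq2, no filter or the block, and 1 to 2 without one section. Beside Ifi202b, whose call the selection fixed, the member was Ifi205 each time. In macrophage-rich spots 0 to 10 members were called without one section. At the edge 0 were called with 5 steps or in CC080F1 alone (fits of CC080F1 alone were chosen after seeing the data) and 0 to 2 without one section. In CC080F1 alone the edge change (log2) was -0.023 for Ifi203, -0.025 for Ifi204, -0.17 for Ifi206, -0.020 for Ifi207 and -0.16 for Mndal, where the fit over all 4 sections gave values above 0. Without one section it ran from -0.15 to 0.22 for Ifi206 and from -0.028 to 0.18 for Mndal, lowest without CC075F1 replicate 2. None of these was called. Between holding and free spots the 603 genes called became 1146 at 2 UMIs or more, 366 at 10000 UMIs, 326 balanced over macrophage tertiles, 153 over interferon tertiles (chosen after seeing the data) and 73 with DESeq2. No section was left out here, since 1 section gives no residual degrees of freedom. The members called became 3 over interferon tertiles and 1 with DESeq2. The mean share of holding spots, 64.7%, was 32.1% at 10000 UMIs and 35.2% at 2 UMIs or more. Mean Moran's I, 0.143, was 0.0663 at 10000 UMIs. The cause of these shifts was not tested, except that thinning and the 2-UMI limit leave fewer molecules by construction.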
